A study of Mus musculus with 13 samples.

Results

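The genes described here carry Ube2 symbols, which mostly name ubiquitin-conjugating enzymes, and were measured in mouse glomeruli. Expression rows whose symbol begins with Ube2 were taken if TPM reached at least 1 in at least 4 of the 13 libraries. TPM is transcript abundance per length, scaled to a fixed library total. The set also holds pseudogene rows, inactive partners and a protein that binds such enzymes, and it leaves out conjugating enzymes under other symbols. Of 42 Ube2 symbols among 35967 in the table, 35 passed and 7 did not. Ubiquitin is passed from an activating enzyme (E1) to a conjugating enzyme (E2), and from there to a target protein with the help of a ligase (E3). The E2 often sets which kind of ubiquitin chain is built, and with it whether the target is degraded by the proteasome, routed elsewhere or changed in activity. A few E2 enzymes carry ubiquitin-like proteins such as NEDD8 or ISG15 instead. Podocytes, the postmitotic epithelial cells that cover the glomerular capillaries, rely on this system for protein turnover.

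Glomeruli were isolated from wildtype Balb/c mice after an intraperitoneal dose of 2.0 mg rabbit IgG, and their RNA was sequenced in bulk. Control mice received preimmune IgG (n = 5 libraries), and mice with membranous nephropathy (MN), an immune complex disease of the podocyte, received IgG against the podocyte protein THSD7A and were studied at day 1 (n = 4) or day 5 (n = 4). All mice carried a wildtype Thsd7a gene, the MN model was run in males, and the methods give an age for the knockout and C3-deficient cohorts with their littermates but none separately for these wildtype mice. Controls of both days were joined by the authors into 1 group without a day for each library, so day and treatment cannot be fully told apart. The study describes its RNA-seq replicates as independent animals. Because the MN model is passive (foreign IgG is injected), it holds the effector phase of the disease and not the breaking of tolerance.

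The libraries resembled each other, with Spearman correlations from 0.971 to 0.988 across the 14322 genes that reached 1 TPM in at least 4 libraries. The sequencing depth behind them is unknown because TPM keeps no read counts. Defining markers of podocytes, glomerular endothelium and mesangium were present in every group. Summed podocyte TPM was 6481 to 8763 in controls and 7199 to 7510 at day 5. Over the 8 lists, no marker found among the symbols was at 0 in every library. Of the 5 mesangium markers looked for, 4 were found, and the symbol Sept4 was not. Proximal tubule markers summed to 2104 to 7856 TPM in controls, 3671 to 6891 at day 1 and 2706 to 3278 at day 5, and distal tubule markers to 483 to 1161, 999 to 1661 and 667 to 830. Leukocyte markers summed to 7.36 to 15.3 TPM in controls, 8.53 to 15.5 at day 1 and 8.83 to 18.5 at day 5, with S100a8 the most abundant of them. Ptprc, the pan-leukocyte marker, had 1.302 to 3.66 TPM in controls and 2.73 to 4.93 at day 5 (log2 fold change 0.71, adjusted p = 0.131, limma), and the macrophage marker Adgre1, which was below the filter, had 0.0323 to 0.2103 and 0.2109 to 1.60 TPM. Their part in the results below was not tested. Erythroid markers summed to 207 to 472 TPM in controls, 92.2 to 282 at day 1 and 205 to 473 at day 5. Both tubule sums were thus higher in every day 1 library than in any day 5 library, and proliferation markers, given beside Ube2c, set day 5 apart from both other groups. In bulk RNA, a change in the number of cells of a type and a change in RNA per cell cannot be told apart.

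The 35 genes ranged widely in the control libraries, and among those named here from a mean of 1.00 TPM for Ube2cbp to 278 TPM for Ube2d3. Their median control level was 61.6 TPM against 22.6 TPM over the 14322 genes tested, and 29 of the 35 lay above that wider median. Over 100 TPM were 9 genes, 23 lay between 10 and 100 TPM, and only Ube2c, Ube2t and Ube2cbp lay under 10 TPM. The low end of the filter mattered for 1 row. Ube2cbp, which encodes an E2-binding protein rather than an E2, passed with exactly 4 libraries at or above 1 TPM. Just outside was Ube2u, with 1 library over 1 TPM (1.11 TPM at day 1) and a control mean of 0.273 TPM. Ube2d2b reached at most 0.145 TPM, and Ube2d4, Ube2dnl1, Ube2dnl2, Ube2l3-ps1 and Ube2nl were listed at 0 in all 13 libraries.

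**Figure D1:**
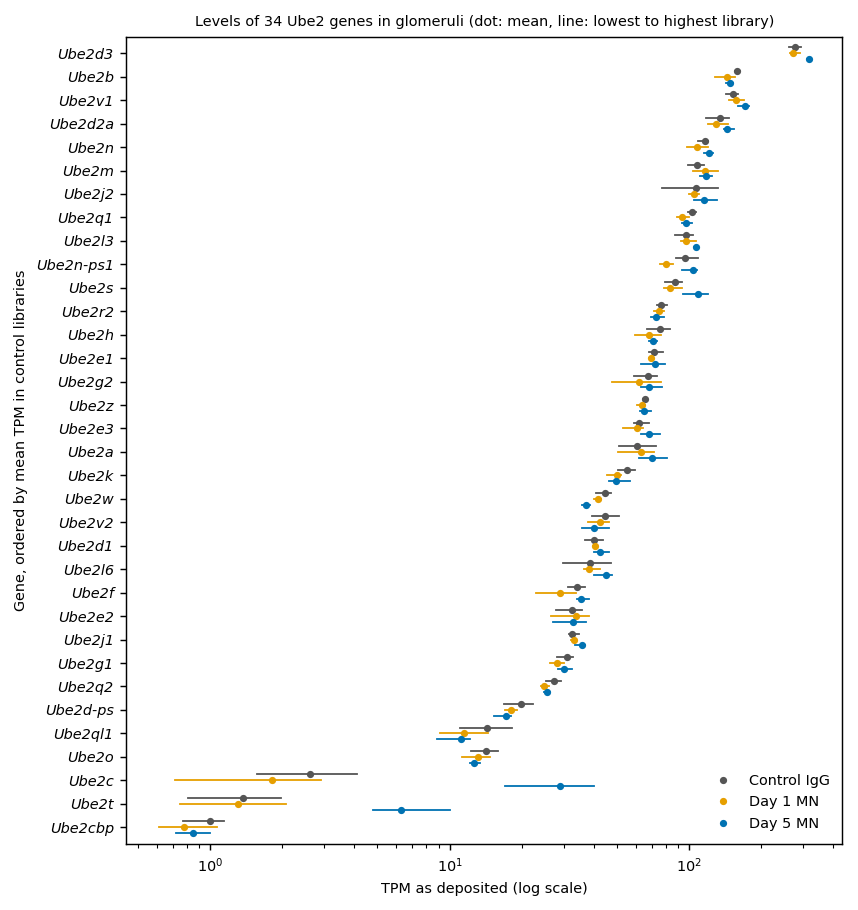
Level of 34 Ube2 genes (y axis, ordered by control mean) in TPM on a log scale (x axis), with the group mean as a dot and the lowest to highest library as a line, for control IgG (n = 5), day 1 MN (n = 4) and day 5 MN (n = 4). Most genes overlap across the 3 groups above 10 TPM, and Ube2c and Ube2t at the low end have day 5 lines to the right of the other groups.

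Among the most abundant in controls were Ube2d3 at 278 ± 12.7 TPM, Ube2b at 159 ± 3.71, Ube2v1 at 153 ± 6.40 and Ube2d2a at 135 ± 11.6 (mean ± SD, n = 5). Ube2b and Ube2v1 overlapped, with control ranges of 155 to 163 and 143 to 160 TPM, and every Ube2d3 library was above both. The lowest 5 were Ube2cbp at 1.00 ± 0.154 TPM, Ube2t at 1.38 ± 0.534, Ube2c at 2.60 ± 0.925, Ube2o at 14.1 ± 1.54 and Ube2ql1 at 14.3 ± 2.70. The summed TPM of the 35 genes was 2677 ± 83.8 in controls (range 2531 to 2734), 2570 ± 19.8 at day 1 (2554 to 2596) and 2826 ± 55.3 at day 5 (2748 to 2872). Every day 5 sum was thus above every other sum, and without Ube2c and Ube2t the sums were 2673 ± 83.5, 2567 ± 21.1 and 2791 ± 48.1 TPM, with the lowest day 5 library (2726) below the highest control library (2730).

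For the tests, TPM was scaled by median-of-ratios factors (0.955 to 1.04), and log2(scaled TPM + 0.5) was fitted over all 14322 genes and all 13 libraries with limma and Benjamini-Hochberg adjustment. A gene was called changed at an adjusted p under 0.05 together with a log2 fold change over 0.5 in either direction, the thresholds of the study's methods. Fold changes below are on that log2(scaled TPM + 0.5) scale, which understates changes of low genes. Both MN groups were set against the same 5 control libraries.

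At day 1, no Ube2 gene was called, against 0.0908% of all genes tested, and none had an adjusted p under 0.05, against 0.133% of all. At an unadjusted p under 0.05 there were 2 Ube2 genes (Ube2m higher and Ube2n-ps1 lower), where 12.6% of all genes reached it. The median log2 fold change of the 35 was -0.02, with 12 higher and 23 lower (8 higher when TPM was not scaled further), beside a median of -0.0029 over all genes. For 31 of the 35, the 95% interval lay within 0.5 log2 units on both sides, compared with 65.25% of all genes. The 4 genes with wider intervals were Ube2c, Ube2t, Ube2cbp and Ube2ql1, which were among the 5 with the lowest control level. Libraries of day 1 and control did not overlap for 1 gene, Ube2n-ps1, against 4.22% of all genes.

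At day 5, 2 Ube2 genes were called, Ube2c and Ube2t, and both rose. Their number stood beside a background of 3.21% of all genes called. An adjusted p under 0.05 without regard to fold was reached by 4 of the 35 (Ube2c, Ube2t, Ube2d3 and Ube2s, all higher), against 6.12% of all genes. Day 5 and control libraries did not overlap for 7 of the 35, against 10.8% of all: Ube2c, Ube2t, Ube2s, Ube2d3 and Ube2l3 lay above and Ube2b and Ube2w below the controls as deposited. After scaling the number was again 7, with the same 5 above, but Ube2b and Ube2w overlapped and Ube2m and Ube2v1 lay above the controls. The median log2 fold change of the 35 was 0.09, with 22 higher and 13 lower, beside -0.0032 over all genes, of which 49.31% were higher. An unadjusted p under 0.05 was found for 12 genes, 11 of them higher, where 20.1% of all genes reached it. Apart from the 2 that were called, log2 fold changes ran from -0.30 (Ube2ql1) to 0.35 (Ube2s), and 28 of the 35 intervals lay within 0.5 log2 units on both sides, against 61.3% of all genes.

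**Figure D2:**
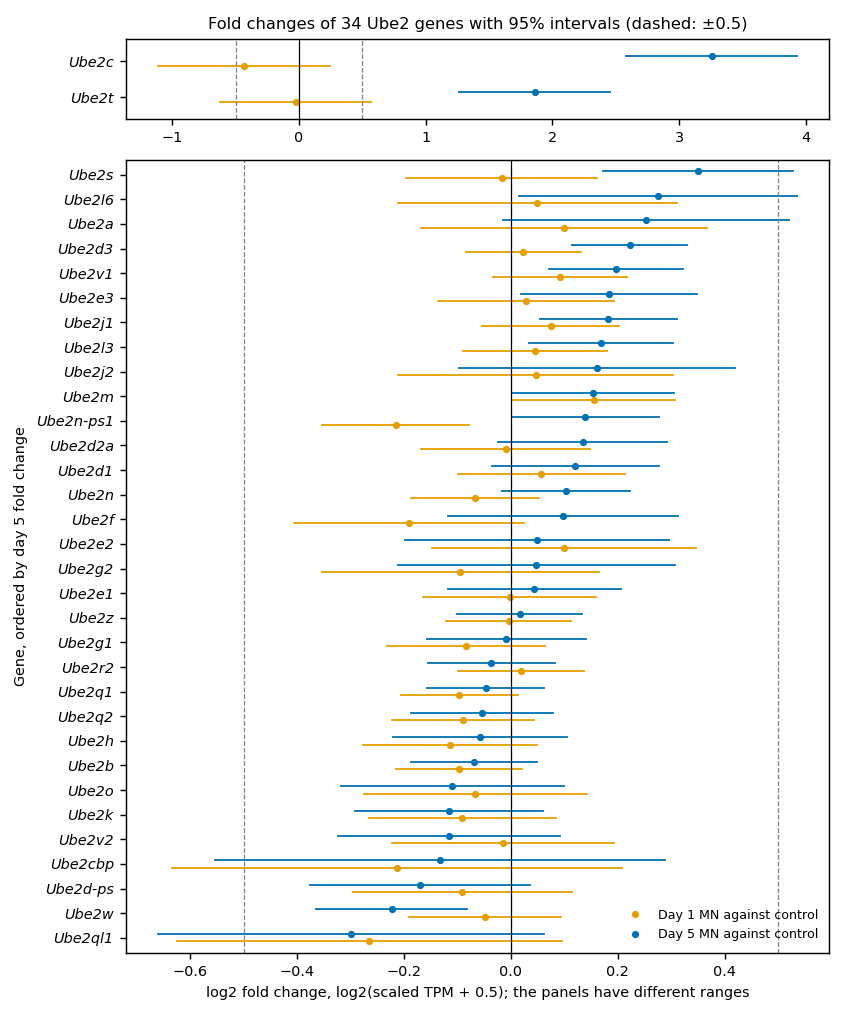
Log2 fold change against control with its 95% interval (x axis, log2(scaled TPM + 0.5)) for 34 Ube2 genes (y axis), at day 1 MN (orange) and day 5 MN (blue), with dashed lines at 0.5 log2 units on both sides and a separate range for Ube2c and Ube2t. At day 5, Ube2c (3.26) and Ube2t (1.86) lie beyond the dashed line with their whole interval, while the point estimates of the other 32 genes stay between -0.30 and 0.35.

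Between the MN groups, 2 Ube2 genes were higher at day 5 than at day 1 past both thresholds, again Ube2c and Ube2t, where 1.81% of all genes were called. By adjusted p alone there were 4 (Ube2c, Ube2t, Ube2s and Ube2n-ps1), against 2.38% of all genes. The median difference was 0.08 log2 units with 26 genes higher and 9 lower, beside 0.0049 over all genes.

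Ube2c, a cell cycle E2 gene, had the largest change of the 35. UBE2C primes ubiquitin chains on substrates of the anaphase-promoting complex (APC/C), the ligase that destroys cyclin B and securin in mitosis, and UBE2S extends those chains. Ube2c (ENSMUSG00000001403, chromosome 2:164611768-164620742, plus strand, GRCm39) was at 4.09, 2.51, 1.56, 2.60 and 2.26 TPM in the controls. At day 1 it was at 2.12, 1.52, 0.714 and 2.91 TPM. At day 5 it was at 26.4, 31.9, 40.3 and 17.0 TPM. The lowest day 5 library was thus above the highest of the other 9, while day 1 and control overlapped. The day 5 log2 fold change was 3.26 (SE 0.31, adjusted p = 5.5e-05, limma), the difference from day 1 was 3.69 (SE 0.33, adjusted p = 5.9e-05), and the day 1 value of -0.43 (SE 0.31, adjusted p = 0.596) did not pass. Of the 31-base words in its annotated transcripts, 20.4% also occurred in other genes, 14.0% in the neighbouring Tnnc2, which was listed at 0 in 12 of 13 libraries.

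Proliferation markers (Mki67, Top2a, Cdk1, Ccnb1, Ccnb2 and Plk1) moved with Ube2c. Their summed level was 12.9 to 24.4 TPM in controls, 10.04 to 22.3 at day 1 and 87.5 to 144 at day 5, and 6 of 6 were called higher at day 5 and none at day 1. Of these, Ccnb1 reached 1 TPM only in the 4 day 5 libraries and so entered the test through the group in which it was high. Whether the day 5 rise of Ube2c goes beyond that of these markers was not tested. Cell division was not measured in these libraries, and the cell type that carried Ube2c cannot be told from bulk RNA.

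Ube2s (ENSMUSG00000060860, chromosome 7:4795621-4815589, minus strand) was far more abundant, at 87.8, 91.1, 93.5, 84.3 and 79.2 TPM in controls. Its day 1 libraries had 80.7, 93.6, 80.6 and 78.9 TPM and its day 5 libraries 121, 106, 115 and 94.3 TPM. All 4 day 5 libraries were above the other 9, with the lowest of them at 94.3 against 93.6 TPM. The day 5 log2 fold change of 0.35 (SE 0.083, adjusted p = 0.0226, limma) passed the adjusted p but not the fold threshold. The difference from day 1 was 0.37 (SE 0.087, adjusted p = 0.0439). Of its 31-base words, 38.1% were shared with other genes, 18.6% with Rpl28, whose day 5 log2 fold change was -0.0015 (adjusted p = 0.996). Leaving out 1 library at a time, the Ube2s adjusted p at day 5 stayed under 0.05 in 8 of 13 fits, and that against day 1 in 4 of 13.

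Ube2t (chromosome 1:134890275-134903457, plus strand) also rose at day 5, and its product works with the ligase FANCL to attach a single ubiquitin to FANCD2 in the Fanconi anemia pathway of DNA crosslink repair. Ube2t was at 0.996, 1.98, 0.810, 1.91 and 1.20 TPM in controls. At day 1 it was at 2.08, 0.983, 0.748 and 1.44 TPM and at day 5 at 4.77, 5.21, 10.04 and 5.03 TPM. Day 5 did not overlap with the other groups, and 1 day 5 library, at 10.04 TPM, stood above the other 3. The day 5 log2 fold change was 1.86 (SE 0.28, adjusted p = 0.0012, limma), and the difference from day 1 was 1.88 (SE 0.29, adjusted p = 0.0026, or 0.0511 with a difference of 2.03 when the tubule markers entered as a covariate). At day 1 the value was -0.03 (SE 0.28, adjusted p = 0.982). Ube2t did not enter through the day 5 libraries alone, since 3 control and 2 day 1 libraries also reached 1 TPM.

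**Figure D3:**
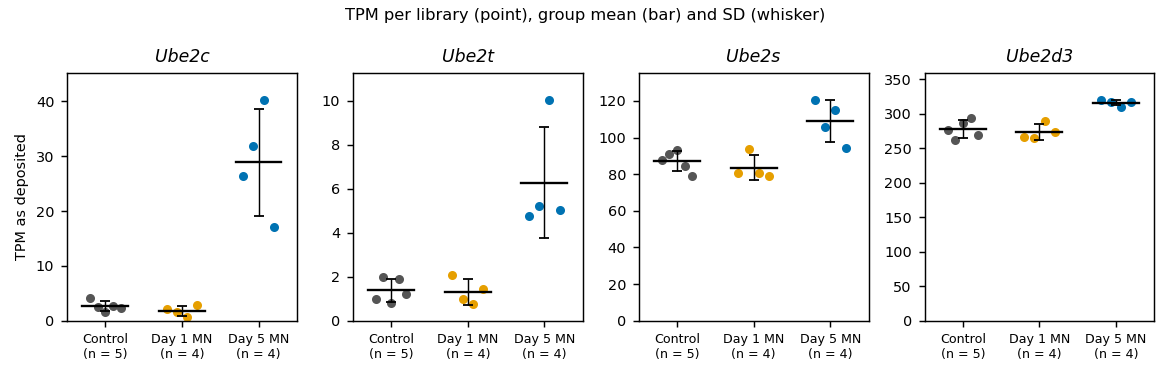
TPM as deposited (y axis, from 0) of Ube2c, Ube2t, Ube2s and Ube2d3 in each library (points) with group mean (bar) and SD (whisker) for control (n = 5), day 1 MN (n = 4) and day 5 MN (n = 4). The 4 day 5 points lie above all others in each panel, by a wide margin for Ube2c (17.0 to 40.3 against at most 4.09 TPM) and a narrow one for Ube2s (94.3 against 93.6 TPM).

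The promoters of these 3 genes are shown because their transcripts were higher together at day 5. They were read from GRCm39 as the stretch from position -250 relative to the first base of the main annotated transcript up to the first annotated exon of the gene, which ended the run at position -51 for Ube2c, -1 for Ube2s and -21 for Ube2t. Capitals mark 3 kinds of short motif known from cell cycle promoters, searched on both strands: the CCAAT box (CCAAT, which reads ATTGG when it lies on the other strand), the cell cycle homology region or CHR (TTTGAA or else TTTAAA, where the first reads TTCAAA on the other strand), and letters like those of E2F sites, of which 4 forms were searched (the forms TTCCCGC and also TTGGCGC, with TTGCCGC and also TTCGCGC). Adjoining matches can run together, as in the overlapping pairs of Ube2c and Ube2t.
Ube2c, chr2:164611568-164611767, plus strand: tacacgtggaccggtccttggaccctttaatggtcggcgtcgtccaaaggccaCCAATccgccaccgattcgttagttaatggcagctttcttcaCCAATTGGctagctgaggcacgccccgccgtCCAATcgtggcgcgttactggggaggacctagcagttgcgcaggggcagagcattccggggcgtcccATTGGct
Ube2s, chr7:4815590-4815839, minus strand: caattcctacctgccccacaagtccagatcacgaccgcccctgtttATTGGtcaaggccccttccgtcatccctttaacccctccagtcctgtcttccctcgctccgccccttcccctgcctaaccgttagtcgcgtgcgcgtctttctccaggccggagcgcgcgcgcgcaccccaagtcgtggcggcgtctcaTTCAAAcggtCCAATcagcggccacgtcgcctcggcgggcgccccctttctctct
Ube2t, chr1:134890045-134890274, plus strand: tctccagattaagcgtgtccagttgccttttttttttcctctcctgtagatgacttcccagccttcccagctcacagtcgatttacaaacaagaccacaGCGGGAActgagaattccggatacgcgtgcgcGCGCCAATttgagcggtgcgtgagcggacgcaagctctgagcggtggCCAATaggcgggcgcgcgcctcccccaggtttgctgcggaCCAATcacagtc

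In the window from -250 to 50 bases after the start, which reaches past the printed runs, Ube2c held 6 CCAAT boxes and a TTTGAA on the minus strand at position 3. Ube2t held 3 CCAAT boxes, at positions -116, -72 and -32, and 2 E2F-like matches, and Ube2s 2 CCAAT boxes and a TTTGAA on the minus strand at position -55. At least 1 CCAAT was found in 8 of the 32 Ube2 promoters read, against 39.92% of 21770 protein-coding promoters of this length, and 3 or more in 2 of them (Ube2c and Ube2t), against 3.84%. Either CHR form was found in 6 of 32, against 27.04%, CHR together with CCAAT in 3 (Ube2c, Ube2s and Ube2v2), against 11.47%, and an E2F-like match in 5, against 11.17%. These are matches of letters and not binding sites. Ube2d3, the other gene with an adjusted p under 0.05 at day 5, held none of these motifs in its window. That window was set from a main transcript starting at 135144295, inside a gene annotated from 135142743. Its upstream stretch lies within annotated exons and is not printed, so its lack of motifs cannot be set against the promoters of Ube2c, Ube2s and Ube2t.

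The UBE2D and UBE2E enzymes work with a wide range of ligases and attach the first ubiquitin to many targets. Ube2d3 (chromosome 3:135142743-135176674, plus strand) was at 276, 262, 287, 294 and 270 TPM in controls. Its day 1 libraries had 266, 265, 290 and 273 TPM and its day 5 libraries 320, 317, 310 and 317 TPM. The day 5 libraries were close to each other and above all others, which overlapped. This small difference, a log2 fold change of 0.22 (SE 0.05, adjusted p = 0.0173, limma), passed the adjusted p only, and against day 1 the value of 0.20 (SE 0.053) had an adjusted p of 0.0700. The day 5 adjusted p of Ube2d3 stayed under 0.05 in 11 of 13 fits without 1 library. None of the remaining 5 had an adjusted p under 0.05 at day 5, with log2 fold changes of 0.18 for Ube2e3, 0.13 for Ube2d2a, 0.12 for Ube2d1, 0.05 for Ube2e2 and 0.04 for Ube2e1. The 6 genes together summed to 619 ± 18.0 TPM in controls, 608 ± 8.46 at day 1 and 677 ± 20.0 at day 5 (ranges 589 to 633, 599 to 618 and 653 to 701), and the day 5 sums lay above the rest.

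UBE2N builds ubiquitin chains linked through lysine 63, used in NF-κB signalling and DNA repair, and does so with the inactive partners UBE2V1 or UBE2V2. Ube2n was at 116 ± 4.54 TPM in controls, 108 ± 10.01 at day 1 and 122 ± 5.28 at day 5, with overlapping ranges. Ube2v1 had 153 ± 6.40, 158 ± 9.87 and 171 ± 8.72 TPM, and its day 5 log2 fold change of 0.20 (SE 0.058) had an adjusted p of 0.0664 (limma). Ube2v2 went the other way in value, from 44.5 ± 4.34 to 40.1 ± 4.62 TPM at day 5 (log2 fold change -0.12, adjusted p = 0.570, limma). Of the 31-base words of Ube2v1, 47.3% were shared with other genes, 38.3% with Gm66301, so the assignment of its reads is uncertain. Ube2n-ps1, listed as a pseudogene of Ube2n, was at 95.2, 94.0, 110, 95.1 and 88.3 TPM in controls, 75.9, 78.3, 86.2 and 80.7 at day 1 and 108, 93.3, 108 and 105 at day 5. Its day 1 libraries were all under the other 9, yet the day 1 log2 fold change of -0.22 (SE 0.064) had an adjusted p of 0.244, and only day 5 against day 1 passed the adjusted p (0.35, SE 0.067, adjusted p = 0.0114, limma). That adjusted p stayed under 0.05 in 23 of 24 alternative fits, among them all 13 without 1 library, and was 0.227 at its highest. All of its 31-base words (100%) also occur in Ube2n, so how reads were split between the pair is uncertain.

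UBE2A and UBE2B, the mammalian RAD6 enzymes, ubiquitinate histone H2B and the replication clamp PCNA. Ube2b was at 163, 163, 155, 158 and 157 TPM in controls, 142, 156, 151 and 129 at day 1, and 143, 149, 152 and 150 at day 5. All day 5 libraries were below all controls as deposited, by 152 against 155 TPM at the nearest, but after scaling the ranges overlapped and the log2 fold change was -0.07 (SE 0.055, adjusted p = 0.546, limma). Ube2a varied more, from 50.9 to 72.9 TPM in controls and 61.8 to 80.7 at day 5 (log2 fold change 0.25, SE 0.12, adjusted p = 0.280, limma).

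The enzymes that build lysine 48 chains, the usual signal for the proteasome, did not pass the test in any comparison. Ube2k, Ube2r2, Ube2g1 and Ube2g2 summed to 230 ± 7.35 TPM in controls, 216 ± 14.0 at day 1 and 221 ± 9.62 at day 5. Their day 5 log2 fold changes were -0.12, -0.04, -0.0086 and 0.05. The membrane-bound enzymes of endoplasmic reticulum-associated degradation were Ube2j1 and Ube2j2. Ube2j1 was at 32.3 ± 1.31 TPM in controls and 35.9 ± 1.54 at day 5 (log2 fold change 0.18, SE 0.059, adjusted p = 0.0958, limma), and Ube2j2 at 107 ± 20.2 and 115 ± 11.4 TPM, where 1 control library was at 77.5 and another at 132 TPM.

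Among the E2 enzymes of ubiquitin-like proteins, Ube2m and Ube2f, which charge cullins with NEDD8, were at 108 ± 7.57 and 33.9 ± 2.02 TPM in controls and at 117 ± 6.21 and 35.4 ± 1.86 at day 5. Ube2m had the same log2 value of 0.15 at day 1 and day 5 (adjusted p = 0.394 and 0.243, limma). Ube2l6, the interferon-induced E2 of ISG15, ranged from 29.9 to 47.2 TPM in controls and 40.2 to 47.9 at day 5 (log2 fold change 0.28, SE 0.12, adjusted p = 0.221, limma). Isg15 itself was at 56.2 ± 16.8 TPM in controls and 69.4 ± 7.85 at day 5 (0.37, adjusted p = 0.352, limma). Ube2z, which accepts ubiquitin from the second E1, UBA6, was at 65.6 ± 1.20, 63.4 ± 1.85 and 64.8 ± 3.12 TPM. None of these 4 had an adjusted p under 0.05 at day 5.

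The remaining enzymes have varied roles. Ube2w, which adds ubiquitin to the amino terminus of proteins, was at 47.2, 40.9, 46.6, 42.6 and 45.8 TPM in controls, 40.2, 40.9, 42.8 and 43.0 at day 1 and 38.0, 38.5, 36.5 and 35.8 at day 5. As deposited, all day 5 libraries were under the other 9, after scaling the ranges of day 5 and control overlapped, and the log2 fold change of -0.22 (SE 0.065) had an adjusted p of 0.0648 (limma). Ube2l3, the partner of HECT and RBR ligases such as parkin, was at 104.2, 87.5, 101, 96.1 and 98.9 TPM in controls and 105.1, 105.2, 109.5 and 107.4 at day 5. Its day 5 libraries were above all controls, by 105.1 against 104.2 TPM at the nearest, while 1 day 1 library was at 107 TPM. The log2 fold change was 0.17 (SE 0.062, adjusted p = 0.146, limma). Ube2h, Ube2o, Ube2q1 and Ube2q2 had day 5 log2 fold changes from -0.11 to -0.05, and Ube2ql1, at 14.3 ± 2.70 TPM in controls and 11.2 ± 1.56 at day 5, had -0.30 (SE 0.17, adjusted p = 0.352, limma). The row Ube2d-ps, a symbol that the annotation read here gives to 2 overlapping loci, a long noncoding RNA and a transcribed pseudogene, had -0.17 (adjusted p = 0.351, limma) and Ube2cbp -0.13 (adjusted p = 0.782, limma).

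Of 85 other genes of ubiquitin conjugation, arranged in 8 lists, 84 were tested and 3 were called at day 5, all higher, beside 3.21% of all genes called, while none was called at day 1, beside 0.0908%. The day 5 share is close to that of all genes. Their median log2 fold changes were -0.02 at day 1 and 0.0091 at day 5. Cdc20, the activator of the APC/C in mitosis, was at 4.39, 4.17, 3.14, 3.35 and 1.82 TPM in controls, 4.92, 3.10, 3.46 and 3.89 at day 1 and 16.8, 18.8, 25.2 and 10.3 at day 5. Its day 5 libraries were all above the rest (log2 fold change 2.25, SE 0.25, adjusted p = 1.3e-04, limma). Fbxo5, which encodes the APC/C inhibitor EMI1, was at 3.95 to 5.99 TPM in controls, 4.66 to 5.77 at day 1 and 7.94 to 10.6 at day 5 (log2 fold change 0.82, SE 0.14, adjusted p = 0.0024, limma). Fancd2, the target of UBE2T, was low throughout, at 0.368 to 0.921 TPM in controls, 0.342 to 0.999 at day 1 and 1.26 to 3.26 at day 5 (1.16, SE 0.28, adjusted p = 0.0246, limma), and it reached 1 TPM only in the 4 day 5 libraries, so that it entered the test through the group in which it was high. Its call was lost with the replicate number as a block (adjusted p = 0.1098), and without 1 library it was called in 6 of the 9 fits that kept it above the filter on low values. Fancl, the ligase between UBE2T and FANCD2, had a day 5 value of -0.10 (adjusted p = 0.682, limma).

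**Figure D4:**
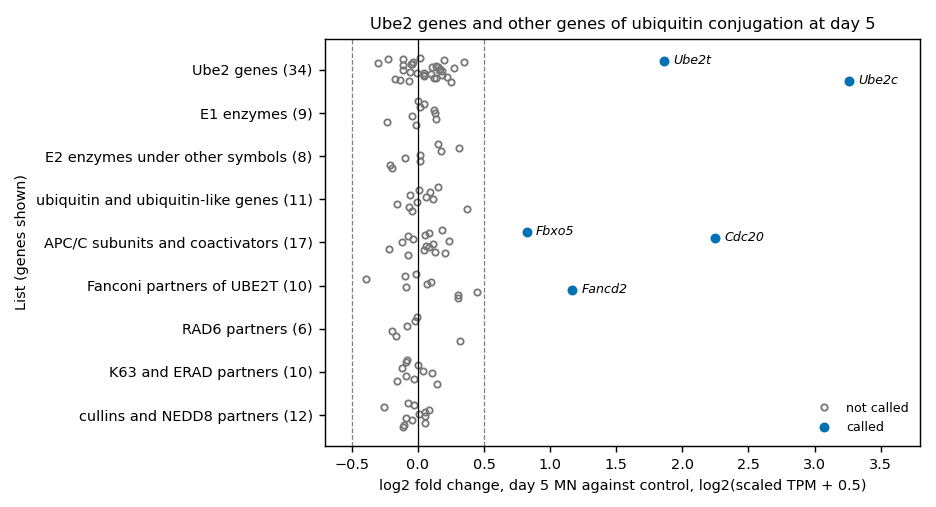
Day 5 log2 fold change against control (x axis, log2(scaled TPM + 0.5)) of 34 Ube2 genes and of 8 lists of other ubiquitin conjugation genes (y axis, genes shown in brackets), with filled blue points for genes called and open grey points for the rest, and dashed lines at 0.5 log2 units on both sides. Ube2c (3.26), Cdc20 (2.25), Ube2t (1.86), Fancd2 (1.16) and Fbxo5 (0.82) lie apart, and each of the other points lies between the dashed lines.

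No core subunit of the APC/C was called. The 2 called among the 17 genes of that list were Cdc20 and Fbxo5, and its median was 0.08 log2 units at day 5. In the Fanconi list 1 of 10 was called (median 0.09, lowest -0.40). No gene was called among the 9 E1 enzymes (day 5 values -0.24 to 0.13), the 8 tested E2 enzymes under other symbols (-0.21 to 0.31), the 12 ubiquitin and ubiquitin-like genes (-0.16 to 0.37), the 6 RAD6 partners (-0.20 to 0.32), the 10 partners of lysine 63 and endoplasmic reticulum enzymes (-0.16 to 0.15) and the 12 cullins and NEDD8 partners (-0.25 to 0.08). Ubb, a polyubiquitin gene, had a day 5 log2 fold change of 0.09 (adjusted p = 0.546, limma). Between day 5 and day 1, Cdc20 (2.01, adjusted p = 6.1e-04, limma) and Fbxo5 (0.78, adjusted p = 0.0092, limma) were called.

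The 5 tested genes whose log2 levels followed Ube2c most closely over the 13 libraries were Ncaph (r = 0.983), Ccnb2 (r = 0.979), Ccna2 (r = 0.979), Kif18b (r = 0.977) and Pimreg (r = 0.976), which encode a condensin subunit, 2 cyclins, a mitotic kinesin and a mitotic regulator. Because the 4 day 5 libraries stand apart in all of them, these values mostly describe that step. Over the 9 control and day 1 libraries alone, the correlations were 0.778, 0.633, 0.741, 0.557 and 0.574. The 5 genes were picked on all 13 libraries, those 9 included, so these values are no separate check. Kif18b averaged 0.238 TPM in controls, 0.234 at day 1 and 3.67 at day 5. With means this low outside day 5, it entered the test mostly through the group in which it was high. Its correlation over the 9 libraries rests on values near the floor. For proliferation markers outside the 5, the values over the same 9 were 0.47 (Mki67), 0.53 (Top2a), 0.27 (Cdk1), 0.40 (Ccnb1) and 0.67 (Plk1). Ube2t followed Ube2c with r = 0.938 over all libraries and 0.477 over those 9, and Ube2s with 0.817 and -0.100.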

How the data were processed

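Bulk RNA-seq libraries of isolated glomeruli (paired-end) were quantified by the authors, who deposited 1 table of TPM (transcript abundance normalized for gene length and library total) with 13 library columns. The submitters' processing notes name FastQC 0.11.9, Trimmomatic 0.39 and kallisto 0.46.2, and the genome GRCm39. The study's methods ran a test for read counts. Since the deposited unit is TPM, no such test was used here, depth is unknown, and no counting intervals are given.

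Library columns were matched to groups by the labels. TPM was divided by median-of-ratios factors over 15772 genes above 0 in every library. Of 35967 symbols, the 14322 that reached 1 TPM in 4 or more libraries entered the test as log2(scaled TPM + 0.5) with limma 3.58.1 in R 4.3.3 (1 mean per group, moderated variance with a trend on mean level), with 3 contrasts and Benjamini-Hochberg adjustment over all tested genes within each contrast. The fit was tested on simulated data with independent noise for each gene and library, which does not cover library effects shared by many genes. Values in TPM are as deposited, and libraries were compared for overlap on that scale. Summaries used Python 3.11.15.

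The Ube2 genes, the other gene lists and the tests were chosen with earlier results of these data known. Genes named with fold change, SE and adjusted p were those with an adjusted p under 0.05 in any contrast or with no overlap between MN and control libraries, and every other Ube2 gene is given by value or count. Ube2a, Ube2j1, Ube2l6, Ube2ql1 and Ube2v1 fall outside that rule and were given the same statistics after their values were seen. Genes at the top and the bottom by control level, those nearest the filter, pathway genes that were called and the 5 genes most correlated with Ube2c were also named. Replicate numbers in the titles did not pair the libraries (correlations of same-numbered deviations -0.056 to 0.091, median 0.0029, 12 pairs).

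Gene positions, promoter stretches and 31-base words shared between transcripts came from the GRCm39 genome with a GENCODE annotation later than the Ensembl release the authors used. Promoter motifs were searched as exact letters on both strands, from 250 bases before to 50 bases after the start of the main transcript. Values of 1 Ube2 gene and of 1 gene of the other lists are not reported here, though both are in the counts and medians.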

Additional observations from a re-analysis of the deposited data

Results flagged for a closer look

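Within groups, 24 sets of libraries (8 named genes in 3 groups) were checked for 1 library far from the others, and 2 were found, where chance alone gives about 1 in 20. Ube2s was at 93.6 TPM in day 1 MN replicate 2, with the other 3 at 78.9 to 80.7 TPM. Ube2t was at 10.04 TPM in day 5 MN replicate 3, with the other 3 at 4.77 to 5.21 TPM.

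Between day 5 MN and day 1 MN, 4 of the 35 genes had an adjusted p under 0.05 (limma, Benjamini-Hochberg), against 2.38% of all genes. Neither MN group had controls of its own day in this contrast, so whether the effect of MN differed between the days was not tested. The difference was 3.69 log2 units for Ube2c (adjusted p = 5.9e-05), 1.88 for Ube2t (adjusted p = 0.0026), 0.37 for Ube2s (adjusted p = 0.0439) and 0.35 for Ube2n-ps1 (adjusted p = 0.0114). Day 5 and day 1 libraries did not overlap for 7 of the 35 genes, with 6 higher at day 5 and 1 lower. The higher ones were Ube2c, Ube2t, Ube2s, Ube2n-ps1, Ube2d3 and Ube2f, and the lower one was Ube2w. The share of all genes without overlap is not given for this contrast, so the number cannot be read as particular to Ube2 genes. The 31-base words of Ube2n-ps1 are all shared with Ube2n.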

How the results depend on the processing

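The number of Ube2 genes called was 0 at day 1, 2 at day 5 and 2 for day 5 against day 1, and leaving out any 1 library kept these numbers (0 to 0, 2 to 2 and 2 to 2). With TPM of at least 1 required in every library it was 0 at day 5 and 0 for day 5 against day 1, because Ube2c and Ube2t then leave the table. By adjusted p alone it was 4 and 4. With a tubule marker score as a covariate it was 1 for day 5 against day 1, since Ube2t (log2 difference 2.03) then had an adjusted p of 0.0511. With the replicate number as a block it was 0, 2 and 2, and the other pathway genes called at day 5 were 2 rather than 3; the block changed no other call among these counts. Of 330 refitted fold changes of 14 gene contrasts, 324 kept direction and call, 1 was weaker and 5 reversed, all 5 for Ube2t at day 1, a value near 0 (array quality weights gave 0.032, and leaving out 1 library -0.22 to 0.14). Over the alternatives the day 5 adjusted p was 2.5e-05 to 0.0021 for Ube2c, 6.4e-04 to 0.0206 for Ube2t, 0.0077 to 0.0748 for Ube2s and 0.0130 to 0.0899 for Ube2d3, and that of Ube2s against day 1 was 0.0153 to 0.491. For Ube2n-ps1, the adjusted p of day 5 against day 1 was 0.0050 to 0.227 over the alternatives. The causes were not tested where none is given. TPM without further scaling and quantile normalization moved the median of all genes by less than 0.05 log2 units. Unknown depth limits low genes most: the widest intervals were those of genes with low TPM.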
